A study of Rattus norvegicus with 8 samples.

Results

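Complement is a cascade of blood and tissue proteins that tags microbes and damaged cells and draws leukocytes to them. The classical branch starts when C1q binds a target and switches on its serine proteases C1r and C1s, which cut C4 and C2. The alternative branch is amplified by factor B and factor D. Both branches cleave C3, the central component, and regulators such as factor I, the C1 inhibitor and CD55 hold the cascade in check. The liver makes most circulating complement, and the kidney's tubule, mesangial and interstitial cells also transcribe several components.

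The transcripts described here are those of C1r and C1s (the proteases of the C1 complex), C2 and C3, Cfb and Cfd (factors B and D), and the regulators Cfi (factor I), Serping1 (C1 inhibitor) and Cd55 (decay-accelerating factor). They were found by gene symbol, through the RefSeq accession printed on the array. All 9 genes were present, on 11 of the 41012 probes that are not controls. C1s and Serping1 had 2 probes each and the other genes had 1. The samples were right kidneys of 10-week-old female rats of the strain F344/NSlc, 4 from nephrectomized (unilaterally) and 4 from sham-operated animals, each measured on a 1-colour Agilent rat array of its own. The series' design text gives 2 days after surgery for sampling, but the source names give day 2 for the nephrectomized kidneys and day 1 for the sham kidneys. Should the days in the source names hold, the day of sampling and the operation cannot be told apart in the differences below.

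Between 59.4% and 66.0% of probes were well above background on the nephrectomized arrays and between 61.0% and 62.3% on the sham arrays. As a check of the tissue, all 5 podocyte, all 6 proximal tubule and all 5 distal nephron and collecting duct markers examined were well above background on all 8 arrays. The arrays lay on 2 slides with 2 arrays of each group, with nephrectomized kidneys always at positions 3 and 4 of a slide and sham kidneys at 1 and 2. A slide's positions and the operation therefore cannot be told apart. Levels are given as the log2 of the processed signal relative to the 75th percentile of the same array, and differences as nephrectomized minus sham on that log2 scale. A level is comparable only between arrays for the same probe, not between genes. In whole-kidney RNA, fewer cells of a type and less RNA per cell cannot be told apart.

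No complement gene of the 9 passed the test between nephrectomized and sham kidneys. With limma over 21834 features (named genes, or probes without a gene name), 0 of the 9 reached a Benjamini-Hochberg adjusted p under 0.05, where 0.971% of all features did, 0.696% being higher and 0.275% lower in nephrectomized kidneys. The smallest adjusted p among them was 0.210, for C3. At an unadjusted p under 0.05 there were 3, C3, C1s and Cfi, all with lower values in nephrectomized kidneys, against 6.23% of all features in that direction and 15.8% in either. The differences of 8 members were negative and that of Cfd was positive, and 47.7% of all features had a negative difference. Their median was -0.25, and the median over all tested features was 0.01. For none of the 9 did the 4 nephrectomized values lie entirely apart from the 4 sham values, which was the case for 11.0% of features, 4.04% lower and 6.96% higher in nephrectomized kidneys.

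**Figure D1:**
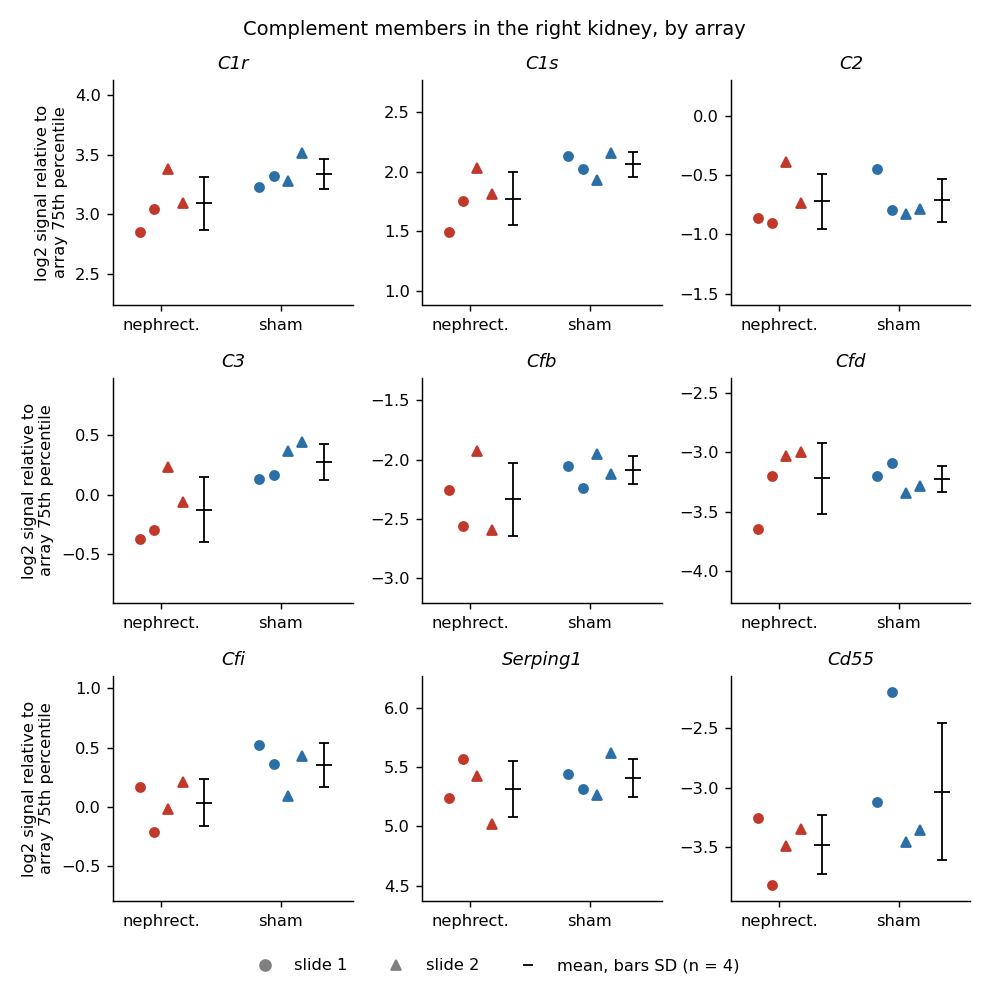
Log2 processed signal relative to the array's 75th percentile (vertical axis, the same span of values in each panel) for the 9 complement genes on 4 nephrectomized and 4 sham arrays. Each point is an array, circles lie on slide 1 and triangles on slide 2, and the black mark gives the group mean with its SD; the 2 groups overlap in every panel.

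The 2 C1 proteases ranked the nephrectomized arrays in the same order, but not the sham arrays. C1r, which is activated first and then cuts C1s, had levels of 2.85, 3.04, 3.38 and 3.10 on nephrectomized arrays 1 to 4, against 3.23, 3.32, 3.28 and 3.52 on sham arrays 1 to 4. Nephrectomized array 3 was within the sham range and the other 3 nephrectomized arrays were below every sham array. The means were 3.09 ± 0.22 in nephrectomized and 3.34 ± 0.13 in sham kidneys (SD, n = 4 each), a limma difference of -0.25 ± 0.12 (SE; 95% interval -0.51 to 0.02; adjusted p = 0.355).

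C1s, which cleaves C4 and C2, had levels of 1.49, 1.76, 2.04 and 1.81 on the nephrectomized arrays, against 2.14, 2.03, 1.93 and 2.16 on the sham arrays. Here too nephrectomized array 3 was the only one of its group inside the sham range. The difference was -0.29 ± 0.11 (SE; 95% interval -0.55 to -0.03; limma adjusted p = 0.271), which is 0.819 times the sham level. The dimmer, second C1s probe gave -0.28 ± 0.11 (adjusted p = 0.277 with every probe tested on its own), with levels of -0.52, -0.31, -0.04 and -0.31 in nephrectomized and 0.07, -0.08, -0.17 and 0.12 in sham kidneys. In the RefSeq gene table of assembly GRCr8, C1r and C1s are neighbouring coding genes on chromosome 4, with C1rl, a C1r-like protease, on the other side of C1r. C1rl was well above background on 2 nephrectomized arrays and 1 sham array and was not tested.

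C3, whose cleavage all branches share, had the second largest difference of the 9 and the smallest p. Its levels were -0.37, -0.30, 0.23 and -0.06 in nephrectomized kidneys 1 to 4, against 0.14, 0.17, 0.37 and 0.45 in sham kidneys 1 to 4. The groups overlapped through nephrectomized array 3, which was above the 2 sham arrays of slide 1. C3 averaged -0.13 ± 0.27 in nephrectomized and 0.28 ± 0.15 in sham kidneys (SD, n = 4 each), a difference of -0.41 ± 0.14 (SE; 95% interval -0.73 to -0.09; limma adjusted p = 0.210), or 0.754 times the sham level with an interval of 0.605 to 0.942. With slide as a block the adjusted p for C3 was 0.0787, the lowest for any member under any of the 22 alternatives computed.

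C2, which supplies the protease part of the classical C3 convertase, did not differ detectably. Its levels were -0.86, -0.90, -0.39 and -0.73 in nephrectomized and -0.45, -0.79, -0.83 and -0.79 in sham kidneys. Each group held a single high array, nephrectomized 3 and sham 1, and the other sham values lay inside the range of the other nephrectomized ones. The difference was -0.01 ± 0.13 (SE; limma adjusted p = 0.985), and its 95% interval, -0.31 to 0.29, leaves room for changes of up to 0.807 and 1.23 times the sham level.

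The 2 sequences below, from RefSeq's GRCr8 promoter table, belong to C1r and C3, which followed each other across the arrays; each runs from 250 bases before to 50 after the start site, and capitals mark the only match to the motifs searched.
C1r, chr4:159098763-159099062, plus strand: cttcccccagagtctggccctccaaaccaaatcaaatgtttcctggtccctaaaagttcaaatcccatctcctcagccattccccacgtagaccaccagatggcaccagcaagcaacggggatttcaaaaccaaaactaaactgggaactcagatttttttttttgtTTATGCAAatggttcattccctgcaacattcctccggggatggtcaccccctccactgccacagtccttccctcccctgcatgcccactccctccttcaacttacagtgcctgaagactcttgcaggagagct
C3, chr9:2201290-2201589, minus strand: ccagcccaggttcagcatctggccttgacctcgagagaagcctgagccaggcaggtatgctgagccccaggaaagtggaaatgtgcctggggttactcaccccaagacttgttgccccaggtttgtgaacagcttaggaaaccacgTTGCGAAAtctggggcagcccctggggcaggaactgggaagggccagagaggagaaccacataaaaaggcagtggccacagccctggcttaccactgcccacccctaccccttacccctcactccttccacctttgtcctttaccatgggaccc

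The table held 5 of the 9 promoters, namely those of C1r, C3, Cfd, Cfi and Cd55. The start sites used for Cfi and Cd55 lie 1110 and 812 bases from the outer bound of the gene. The motifs searched, on both strands, were C/EBP (TTGCNNAA), NF-kappa-B, STAT (TTCNNNGAA), AP-1 (TGANTCA), an interferon response element and the TATA box (TATAAA). The matches were 1 C/EBP motif in C1r, beginning at position -83 from the start site, and 1 in C3, beginning at -104, and none of the 6 motifs matched in Cfd, Cfi or Cd55. Of all 33469 promoters of that length, 10.6% hold the C/EBP motif, 5.37% the NF-kappa-B, 8.87% the STAT, 7.33% the AP-1, 3.92% the interferon and 14.2% the TATA motif. No measurement of binding was made in these kidneys, and a match is a description of the letters.

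C3 was compared with 10195 other named genes by the root mean square difference of log2 values, each gene centred on its own mean over the 8 arrays. C1r ranked 6th at 0.116 and C1s ranked 19th at 0.146. Cfb ranked 255th at 0.207, while C2, Cfi, Cfd, Serping1 and Cd55 lay between 0.272 and 0.476, the last of them ranked 9444th. A gene that did not vary over the arrays would lie at a distance set by the spread of C3 around its own mean. The larger distances and ranks are therefore not degrees of likeness to C3. The 5 genes nearest to C3 were Rabgef1 at 0.0837, Zc3h6 at 0.102, Cpxm1 at 0.112, Adgre1 at 0.114 and C3h15orf48 at 0.115. This measure counts the shift between the groups and the scatter within them alike. Among these 5, Adgre1, which encodes the macrophage antigen F4/80, passed the test between the groups, at -0.51 ± 0.09 (SE; limma adjusted p = 0.0489).

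**Figure D2:**
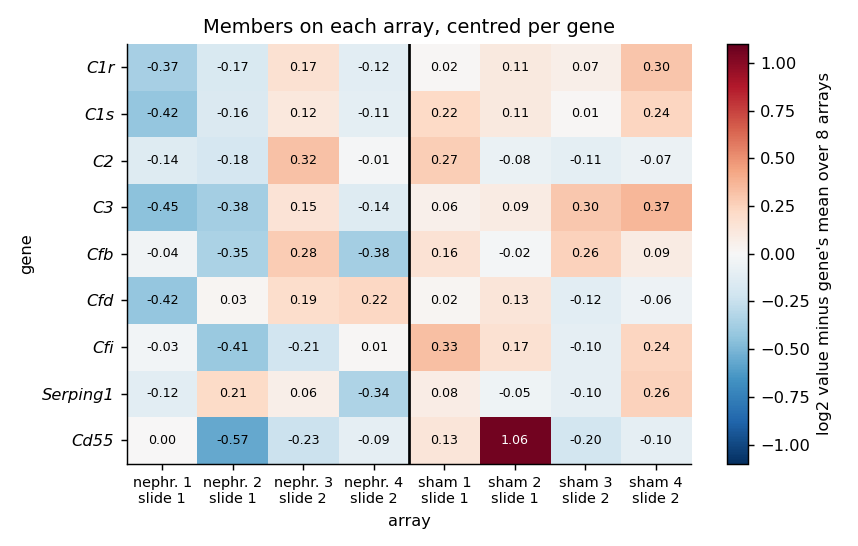
Log2 value of each complement gene minus its own mean over the 8 arrays (colour and printed number), for nephrectomized arrays 1 to 4 on the left and sham arrays 1 to 4 on the right, with the slide of each array. C1r, C1s and C3 are below their means on nephrectomized arrays 1, 2 and 4 and above them on array 3, and Cd55 stands out at 1.06 on sham array 2.

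Of the alternative pathway proteases, Cfb, the factor B that joins C3b in the amplifying convertase, had levels of -2.25, -2.56, -1.93 and -2.59 in nephrectomized kidneys, against -2.05, -2.24, -1.96 and -2.12 in sham kidneys. Nephrectomized array 3 was above all sham arrays and the other 3 were below all of them. The difference was -0.24 ± 0.15 (SE; 95% interval -0.58 to 0.09; limma adjusted p = 0.465), and it was -0.38 without nephrectomized replicate 3 and -0.16 without nephrectomized replicate 4. Cfb and C2 are neighbouring coding genes on chromosome 20, and both were highest of their group on nephrectomized array 3.

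Cfd, which cuts factor B and is known as adipsin for its abundance in fat, had levels of -3.65, -3.20, -3.03 and -3.00 in nephrectomized and -3.20, -3.09, -3.34 and -3.28 in sham kidneys. The sham values lay inside the range of the nephrectomized ones, and the difference was 0.01 ± 0.14 (SE; 95% interval -0.32 to 0.33; limma adjusted p = 0.986). The probe was well above background on all 8 arrays but dim, at 1.42 to 3.54 times the lowest detected signal of its array. Of 8 adipocyte markers, 6 were on the array and 4 were tested, none past the threshold, with Lep well above background on no array. Their summed level, in multiples of the array's 75th percentile, was 2.29 to 3.34 in nephrectomized and 2.31 to 2.64 in sham kidneys. Lpl, the brightest of the 4, carried much of that sum. Its difference was 0.30 ± 0.12, against 0.06 ± 0.10 for Adipoq (SE), and 3 of the 4 differences were positive. The part of fat in the Cfd signal was not tested.

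Among the regulators, Cfi, the protease that cuts and inactivates C3b and C4b, had levels of 0.17, -0.21, -0.02 and 0.21 in nephrectomized kidneys, against 0.52, 0.36, 0.10 and 0.43 in sham kidneys. The overlap came from sham array 3, which lay below nephrectomized arrays 1 and 4. The difference was -0.32 ± 0.12 (SE; 95% interval -0.60 to -0.04; limma adjusted p = 0.263), or 0.803 times the sham level. Its arrays did not rank as those of C3 did, since nephrectomized array 4 was highest in its group and array 3 was below the gene's mean.

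Serping1, the inhibitor of C1r and C1s, had levels of 5.24, 5.57, 5.42 and 5.02 in nephrectomized and 5.44, 5.31, 5.26 and 5.62 in sham kidneys, and the values of the 2 groups were interleaved. The difference was -0.09 ± 0.13 (SE; 95% interval -0.39 to 0.20; limma adjusted p = 0.775). Its second, dimmer probe gave -0.11 ± 0.20 (adjusted p = 0.845 with every probe tested on its own). Both probes placed nephrectomized array 2 highest and array 4 lowest in the nephrectomized group, and array 4 highest and array 3 lowest in the sham group.

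Cd55, a membrane protein that dissociates the C3 convertases, had the largest difference of the 9 and the widest interval. Its levels were -3.25, -3.82, -3.49 and -3.35 in nephrectomized kidneys, against -3.12, -2.19, -3.46 and -3.36 in sham kidneys. Sham array 2 was far above all other arrays, while sham arrays 3 and 4 lay within the nephrectomized range. The difference was -0.45 ± 0.27 (SE; 95% interval -1.06 to 0.17; limma adjusted p = 0.465), and it was -0.17 without sham replicate 2. The signal was dim, at 1.65 to 4.56 times the lowest detected signal of the array, and with normexp background correction the difference was -0.23.

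**Figure D3:**
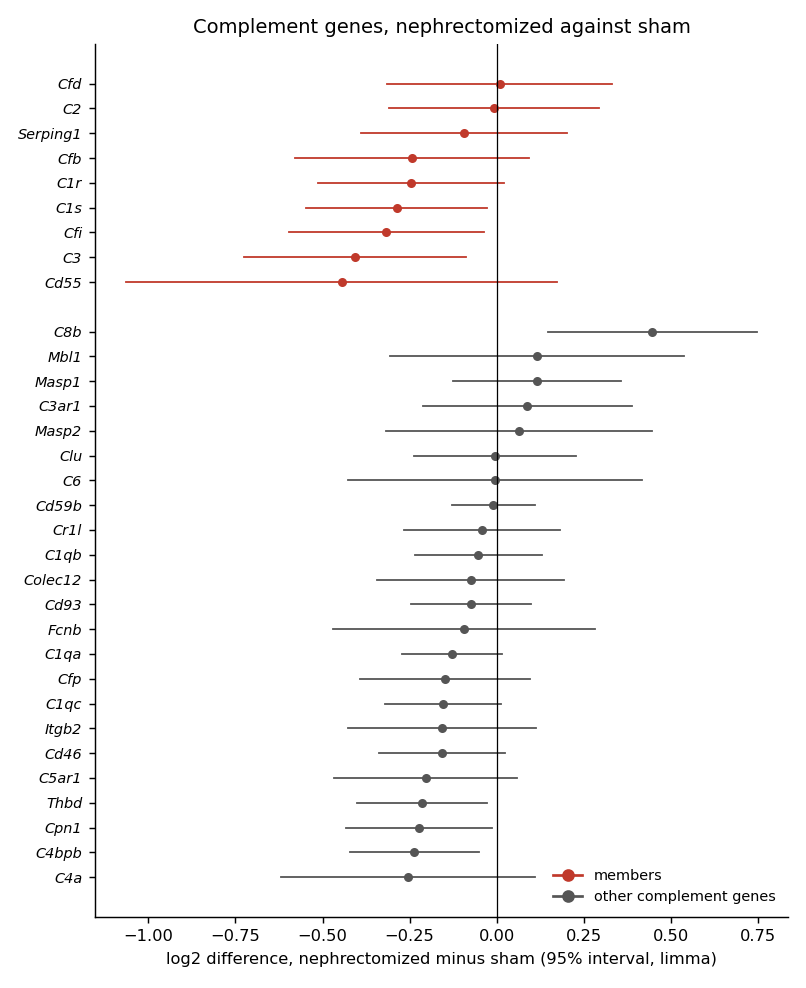
Limma's log2 difference, nephrectomized minus sham, for the 9 complement genes (red) and 23 of the 24 other complement genes tested (grey), with points at the estimate and lines over the 95% interval, 4 arrays against 4. The intervals of C1s, C3 and Cfi lie below 0 before adjustment for the number of features, and the members run from -0.45 for Cd55 to 0.01 for Cfd.

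Single arrays carried much of the spread. Nephrectomized array 3 was the highest of its group for 5 of the 9 genes (C1r, C1s, C2, C3 and Cfb) and the lowest for none, and 7 of the 9 were above their own means on it. On nephrectomized arrays 1, 2 and 4 there were 8, 7 and 7 genes below their own means. Of all tested features 20.0% were highest of the nephrectomized group on that array. So were 6 of the 7 tested macrophage markers (Cd68, Adgre1, Csf1r, Mrc1, Aif1 and Lyz2) and 6 of the 7 tested fibroblast and mesangial markers (Pdgfra, Pdgfrb, Col1a1, Col1a2, Col3a1 and Dcn). The same held for 2 of 3 red cell, 1 of 2 lymphocyte and 2 of 6 endothelial markers, and for 8 of the 24 other complement genes tested. It held for none of the podocyte, proximal tubule, distal nephron, adipocyte, neutrophil or hepatocyte markers. The part of these cells in the complement values of the array was not tested. The share of probes well above background was 61.5% on nephrectomized array 3, inside the 59.4% to 66.0% of the group. Without that replicate, a choice made after its values were seen, C1r, C1s, C3 and Cfb lay entirely below the sham arrays, 4 of 9 against 5.61% of all features. For these 4 genes array 3 was the only nephrectomized array not below every sham array, so their separation followed from leaving it out. The share of all features is therefore no like comparison. Without nephrectomized replicate 3, limma's count of members past the threshold was still 0, with a median difference of -0.34. Without sham replicate 3 only Cfi separated, 1 of 9 against 6.56% of all features lower without overlap, and without any of the other 6 arrays none of the members did. The overlap of Cfi had likewise come only through sham array 3.

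The point estimates differed in size between the 2 slides, but no difference between the slides passed the test given below. On slide 1, with 2 arrays per group, 8 of the 9 differences were negative, from -0.88 for Cd55 to 0.03 for Serping1, with a median of -0.33. On slide 2 there were 7 negative differences, and the median was -0.16. C3 was at -0.49 on slide 1 and -0.32 on slide 2, C1r at -0.33 and -0.16, C1s at -0.45 and -0.12, Cfi at -0.47 and -0.17, and Cfb at -0.26 and -0.22. C2 was at -0.26 on slide 1 and 0.24 on slide 2, and Cfd at -0.28 and 0.29. A test of the difference between the slides, chosen after these values were seen, gave an adjusted p of 1.00 for each of the 9 genes in limma over all features, in which 0 features passed, with unadjusted p values down to 0.0337 for Cfd.

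**Figure D4:**
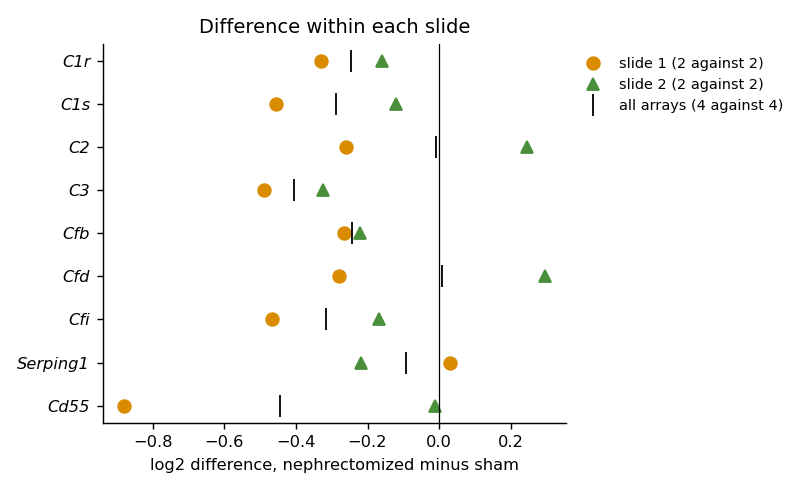
Log2 difference, nephrectomized minus sham, of the 9 complement genes within slide 1 (circles) and slide 2 (triangles), 2 arrays against 2 in each, with the estimate over all arrays as a vertical tick. C1r, C1s, C3, Cfb, Cfi and Cd55 are negative on both slides, Cd55 only by 0.01 on slide 2, while C2, Cfd and Serping1 change sign between the slides.

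The rest of the complement system was read from a list of 48 other genes, of which 39 had a matching probe and 24 were bright enough to test, well above background on at least 4 of 8 arrays. None of the 24 passed (limma, smallest adjusted p = 0.148, against 0.971% of all features past the threshold), 19 had negative differences and their median was -0.07. At an unadjusted p under 0.05 there were 4 of the 24, a share close to the 15.8% of all features. These were C8b, higher in nephrectomized kidneys, and C4bpb, Thbd and Cpn1, lower in them, of which Thbd and Cpn1 are named because of this count, after their values were seen. C4b, C5, C7, C8g and Cd59 had no matching probe under those symbols and were not analysed here. The listed regulator Cd59b was tested, being well above background on 4 nephrectomized and 4 sham arrays. Its difference was -0.01 ± 0.05 (SE) and did not pass, and it is named only because Cd59 itself had no matching probe.

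Of the initiators, 8 of 13 were tested. The C1q chains, which form the recognition part of C1 and in kidney come mainly from macrophages, were at -0.13 ± 0.06 for C1qa, -0.05 ± 0.08 for C1qb and -0.15 ± 0.07 for C1qc (SE; limma adjusted p = 0.362, 0.799 and 0.353). C1qa and C1qc, like C1r and C1s, were highest of the nephrectomized group on array 3, at 2.76 and 0.83, with sham ranges of 2.70 to 2.85 and 0.76 to 0.87, whereas C1qb was highest on array 2, at 3.73 against 3.69 on array 3. Masp1, a protease of the lectin branch, was at 0.12 ± 0.11, and Mbl1, a mannose-binding lectin, at 0.12 ± 0.18 (SE), neither past the threshold.

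C4a, the C4 gene that lies near C2 and Cfb in the rat's major histocompatibility complex, had levels of -1.36, -1.63, -0.85 and -1.14 in nephrectomized kidneys, against -0.97, -1.09, -1.11 and -0.80 in sham kidneys. Array 3 was again the highest of the nephrectomized group, and the difference was -0.25 ± 0.16 (SE; limma adjusted p = 0.483). It was -0.13 without nephrectomized replicate 2, -0.39 without nephrectomized replicate 3 and -0.11 with normexp background correction. C4a and C4b are close paralogs, and whether the probe tells them apart was not tested. Cfp, properdin, which stabilises the alternative convertase, was at -0.15 ± 0.11 (SE; limma adjusted p = 0.541). It was -0.03 with normexp, -0.25 without sham replicate 2 and -0.07 without sham replicate 3.

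C8b, a subunit of the membrane attack complex, had the largest positive difference of the list. Its levels were -2.32, -2.60, -2.50 and -2.17 in nephrectomized kidneys, against -3.02, -2.53, -2.88 and -2.95 in sham kidneys. Sham array 2 lay inside the nephrectomized range and the other 3 sham arrays were below it, and the difference was 0.45 ± 0.13 (SE; 95% interval 0.15 to 0.75; limma adjusted p = 0.148). The probe was dim, with processed signals of 75.6 to 99.7 in nephrectomized and 62.4 to 94.4 in sham kidneys. With normexp background correction the difference was 0.32. C6, another terminal component, was at -0.01 ± 0.18 (SE).

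All 8 tested regulators outside the members had negative differences, with a median of -0.11. C4bpb, the beta chain of the C4b-binding protein, was the only gene of the 24 whose groups did not overlap (11.0% of all features did not), with -2.47, -2.76, -2.48 and -2.51 in nephrectomized and -2.35, -2.41, -2.21 and -2.30 in sham kidneys. Its difference was -0.24 ± 0.08 (SE; limma adjusted p = 0.208), and it was -0.02 with normexp background correction. Thbd, thrombomodulin, was at -0.21 ± 0.08 and Cpn1, a carboxypeptidase that trims the anaphylatoxins, at -0.22 ± 0.09 (SE). Clu, clusterin, was at -0.00453 ± 0.10 and Cr1l, the rodent membrane regulator Crry, at -0.04 ± 0.10 (SE), neither past the threshold. The anaphylatoxin receptors C5ar1 and C3ar1 were at -0.20 ± 0.12 and 0.09 ± 0.13 (SE), and C5ar1 was at -0.10 with normexp and -0.13 without nephrectomized replicate 1.

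Markers of cells that can make complement were measured on the same arrays. Of 8 macrophage markers 7 were tested and 1, Adgre1, passed, lower in nephrectomized kidneys (limma adjusted p = 0.0489, close to the threshold). Its levels were -1.35, -1.33, -1.01 and -1.11 in nephrectomized against -0.81, -0.65, -0.63 and -0.66 in sham kidneys. Of the 7, 6 had negative differences, with a median of -0.09. The summed macrophage level was 27.2 to 32.5 in nephrectomized and 28.7 to 31.9 in sham kidneys. Most of that sum came from Lyz2 and Aif1, the brightest of the 7 probes, so it could hardly show a change in Adgre1. None of the marker genes was followed through the alternative settings described below. Both tested neutrophil markers, S100a8 and S100a9, fell by 1.69 and 1.40 (limma adjusted p = 0.0368 and 0.0189). Their summed level was 0.361 to 0.624 in nephrectomized and 1.08 to 1.68 in sham kidneys. Elane, Csf3r and Cxcr2 were well above background on no array. Of 9 fibroblast and mesangial markers 7 were tested and none passed, with a summed level of 35.7 to 53.1 in nephrectomized and 38.3 to 54.8 in sham kidneys. Col1a2 and Dcn, the brightest of the 7 probes, carried much of that sum. Differences were negative for 4 and positive for 3, from -0.39 ± 0.15 for Dcn to 0.33 ± 0.26 for Col1a1 (SE). Of 6 hepatocyte markers 3 were tested and none passed, with a summed level of 2.08 to 2.47 in nephrectomized and 1.92 to 2.50 in sham kidneys. That sum joins differences of opposite sign, -0.25 ± 0.16 for Fga, -0.20 ± 0.18 for Apoa1 and 0.25 ± 0.10 for Fgb (SE). Fga and Fgb were well above background on all 8 arrays and Apoa1 on 3 nephrectomized and 4 sham arrays, while Ttr and Serpina1 were on none. All 6 endothelial markers were tested and none passed, 4 of them with negative differences and a median of -0.19, and Tie1 (-0.26 ± 0.07, SE; limma adjusted p = 0.129) lay entirely below the sham arrays. Their summed level was 27.1 to 31.0 in nephrectomized and 25.0 to 30.1 in sham kidneys, but Kdr, with a positive difference of 0.14, made up 85.1% to 86.7% of it in nephrectomized and 84.3% to 86.3% in sham kidneys. Lymphocyte markers summed to 0.918 to 1.01 in nephrectomized and 0.975 to 1.03 in sham kidneys, and red cell markers to 2.73 to 3.61 in nephrectomized and 2.33 to 3.54 in sham kidneys. The part of these cell types in the complement values was not tested.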

How the data were processed

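Total RNA was labelled with Cy3, per the labels' protocols, and, per the file headers, spots were quantified by Feature Extraction 10.5.1.1. The deposited scanner files give a processed signal, an intensity on a linear scale that is background-subtracted and detrended within the array, with raw median signals, backgrounds and flags of 0 or 1, per the file headers. A deposited table of the series has log2 values. Against the scanner values they correlated at over 0.999 with slopes of 1.00, which makes them log2 values relative to the 75th percentile, with each probe's median over arrays set to 0, in the same direction. Its column medians were 0.00123, 0.0124, -0.000916 and 0.0153 for nephrectomized replicates 1 to 4 and -0.0145, -0.00231, -0.00103 and -0.00968 for sham replicates 1 to 4.

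Each array had 45018 spots. Control spots (1639) and spots flagged as outliers were dropped, and log2 processed signals were averaged per probe and shifted to the array's 75th percentile. No spot was saturated. RefSeq accessions, without versions, matched 18704 of 41012 probes to 1 symbol of assembly GRCr8, 0 to several and 22308 to none. The scanner files name a different rat assembly, and coordinates are given only for the promoter sequences. Testing required a probe well above background on 4 or more of 8 arrays (25219 probes). The brightest probe by mean stood for its gene, which gave 21834 features, 10223 with a symbol.

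The comparison used lmFit and eBayes of limma 3.58.1 (R 4.3.3), where residual degrees of freedom were 6 and prior ones 2.38. P-values were adjusted by Benjamini-Hochberg across every feature, with a threshold of 0.05. No label ties a sample to an animal of its own, and the p-values then measure only how these samples spread, and the number of arrays limits the precision. The steps were tested on simulated data. The members, the lists and the tests were chosen with earlier results of these data known. Named are all members with every probe, complement genes set by role where tested, the 2 highest and 2 lowest of the other complement genes (C4a falls under both, and 1 gene of the list is not reported here), called markers (up to 3 a list) and the 5 genes most like C3. The alternatives were other background corrections, scalings, filters and probe rules, another variance model, replicate and slide as blocks, each slide alone, the deposited table of log2 values, and every array left out in turn. The files hold no mean spot signal, so normexp used the median, with an offset of 50.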

Additional observations from a re-analysis of the deposited data

Results flagged for a closer look

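Groups of 4 values were tested for every member probe and for the other complement genes named by rule, which leaves out Thbd, Cpn1, C6 and Cd59b. The 2 probes of C1s and of Serping1 counted separately. Of these 48 groups, 3 held an array far from its neighbours by Dixon's criterion (gap over range above 0.829), about what chance gives at 1 in 20. C2 was at -0.45 on sham replicate 1, with the other sham arrays between -0.83 and -0.79. Mbl1 was at -3.65 on nephrectomized replicate 4, with the others of its group between -3.31 and -3.27. C4bpb was at -2.76 on nephrectomized replicate 2, with the others between -2.51 and -2.47. The high value of Cd55 on sham replicate 2 had a gap of 0.735 of the range and did not meet the criterion.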

How the results depend on the processing

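Across 22 alternatives none of the 9 members and none of the other complement genes named passed the threshold, with the lowest member adjusted p at 0.0787. The members' median difference stayed negative in all 22, between -0.27 and -0.23 over the alternatives that use both slides and every array, and between -0.34 and -0.19 when 1 array was left out. The number of features called did depend on the setting, from 212 as reported to 364 with detection on all 8 arrays, 21 without a filter, 528 with trend and robust variance, 103 with slide as a block, and 0 in limma on either slide alone (1922 and 1811 features at an unadjusted p under 0.05 on slides 1 and 2). Leaving out 1 array gave between 23 and 196 features. With the replicate number as a block there were 11 features. Same-numbered arrays did not deviate together (correlations between -0.21 and 0.14 over 4 pairs, 2 of 4 sham arrays correlating best with their own number), so the numbers were not taken as pairs, although same-numbered arrays also share a slide. The signs of small, uncalled differences turned in some settings, and the cause was not tested. C2 was at 0.0609 with normexp and 0.24 on slide 2, and between -0.12 and 0.0811 with 1 array left out. Cfd was at -0.00114 with median scaling, -0.0398 with cyclic loess and -0.28 on slide 1, and between -0.0652 and 0.15 with 1 array left out. On slide 1 Serping1 was at 0.0315, Cfp at 0.0155 and Clu at 0.0103, and on slide 2 Mbl1 was at -0.0523, Cr1l at 0.11 and C3ar1 at -0.0667. With 1 array left out, Serping1 ranged from -0.18 to 0.00465, Clu from -0.0560 to 0.0775, Mbl1 from -0.0542 to 0.24, Cr1l from -0.10 to 0.0453 and C1qb from -0.0936 to 0.0118. Among the 9 members, Cfd and Cd55 had the lowest signal relative to the lowest detected signal of the array, and Serping1 had the highest. Cd55 kept its sign in all 22 alternatives, while Cfd changed sign in 7, C2 in 5 and Serping1 in 2.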
